A study of Mus musculus with 6 samples.

Results

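The 10 genes described here encode inducible inhibitors and transcriptional outputs of RAS-ERK signaling. They were the MAP kinase phosphatase genes Dusp1, Dusp4, Dusp5 and Dusp6, the signaling inhibitor genes Spry1, Spry2, Spry4 and Spred1, and the ETS transcription factor genes Etv4 and Etv5. They were taken by symbol from a count table of 56734 genes, and all 10 were among the 17718 genes with enough counts to be tested. The libraries hold poly(A) RNA of B16-OVA, a mouse melanoma cell line engineered to make chicken ovalbumin, which serves as a tumor antigen. Of the 6, 3 came from cells labelled Ythdf2-KO, a knockout of the m6A reader gene Ythdf2, and 3 from cells labelled WT. No drug or ligand is named for either genotype, so the comparison was between cultures in serum-containing medium. The WT titles include gNC, possibly a control guide, and the labels do not say whether the knockout was a single clone or whether the libraries of a genotype came from separate cultures. The p-values therefore measure the spread between these libraries, which may be technical.

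Growth factor receptors activate RAS, and the kinases RAF, MEK and ERK relay the signal to the nucleus, where ETS and other factors switch on early genes. Among these genes are the cascade's own brakes: DUSP phosphatases remove the activating phosphates from MAP kinases, while Sprouty and SPRED proteins act upstream, at the level of receptors, RAS and RAF. Because they follow ERK activity, transcripts such as Dusp6, Spry4 and Etv4 are commonly read as a measure of pathway output, also in melanoma. YTHDF2 is a cytoplasmic reader of N6-methyladenosine (m6A) that speeds up the decay of mRNAs bearing this mark.

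The libraries held 61167059 to 69497273 counts in Ythdf2-KO and 55660473 to 68739046 in WT, and 3 counts equalled 0.0433 to 0.0540 CPM (counts-per-million). Ythdf2 itself had 100.1, 101 and 104 CPM in the Ythdf2-KO libraries and 124, 124 and 125 CPM in the WT libraries, so its mRNA was reduced but not absent; the edited sequence was not analysed here. The paralogs Ythdf1 and Ythdf3 fell too, to 83.8% and 92.1% of their WT levels, against 81.6% for Ythdf2, so the level of Ythdf2 mRNA does not by itself check the genotype labels. Of 14 melanocyte markers, 12 were tested and all 12 were higher in Ythdf2-KO, with a summed level of 3159 to 3182 CPM in Ythdf2-KO and 1463 to 1489 CPM in WT. Of 14 leukocyte markers, 5 were tested, and their list summed to 23.2 to 26.7 CPM in Ythdf2-KO and 43.8 to 46.2 CPM in WT. The pan-leukocyte gene Ptprc had 2, 0 and 74 counts in Ythdf2-KO and 2, 6 and 5 in WT. Of 11 fibroblast, endothelial and epithelial markers, 6 were tested, of which 2 were higher and 3 lower, with sums of 560 to 569 CPM in Ythdf2-KO and 849 to 879 CPM in WT. The lower sum came from Dcn, a fibroblast matrix gene, with 41.5 CPM in Ythdf2-KO and 487 CPM in WT, while Pdgfrb was higher, with 505 CPM in Ythdf2-KO and 340 CPM in WT. Mitochondrially encoded genes took 1.57 to 1.82% of the counts in Ythdf2-KO and 1.08 to 1.33% in WT. The part of these differences in the results below was not tested, and fewer cells of a kind and less RNA per cell cannot be told apart in bulk RNA.

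The feedback genes did not move as a block. By edgeR's quasi-likelihood test at a Benjamini-Hochberg adjusted p under 0.05, 3 of the 10 were higher in Ythdf2-KO (Dusp1, Dusp5 and Spry1) and 5 were lower (Dusp4, Spry4, Spred1, Etv4 and Etv5), while Dusp6 and Spry2 were not called. Differences between the genotypes were widespread: the same rule called 49.9% of all genes tested, 24.1% higher and 25.8% lower. The share of these calls that were higher was 48.3%, and 59.2% with upper-quartile scaling. The 3 higher genes were each at least 2-fold higher, a size that 6.16% of all genes tested reached with a call. None of the 5 lower genes reached 2-fold. In either direction, 9.54% of all genes tested were called at that size. Dusp5 lay close to this cut, at 2.04-fold, and its log2 fold change without WT replicate 3 was 0.99. The libraries of the genotypes did not overlap for 8 of the 10 genes, against 55.9% of all genes tested. The median log2 fold change of the 10 was -0.072, against -0.0053 over all genes tested, and their median absolute log2 fold change was 0.68 against 0.21. Over the alternative settings the number called higher was 2 to 4 and the number called lower 4 or 5.

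**Figure D1:**
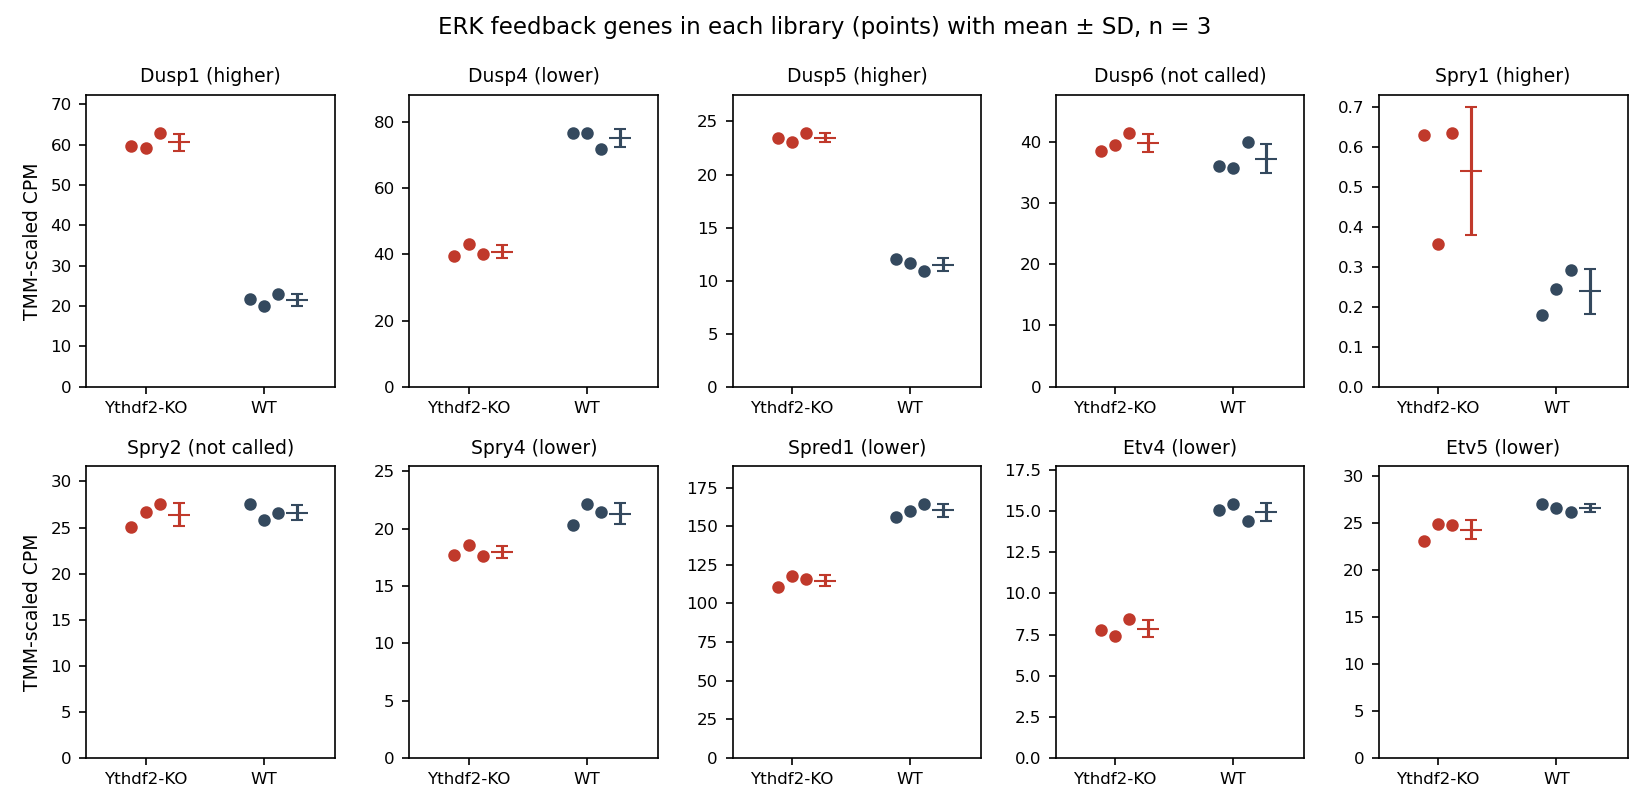
TMM-scaled CPM (vertical axes, from 0, a separate scale for each gene) of the 10 feedback genes in the 3 Ythdf2-KO libraries (left, red) and the 3 WT libraries (right, dark), with the mean ± SD beside the points. Dusp1 stood at 59.2 to 62.9 CPM in Ythdf2-KO and 19.9 to 22.9 CPM in WT, while the libraries of Dusp6 and Spry2 overlapped.

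Among the phosphatase genes, Dusp1 and Dusp5 rose, Dusp4 fell and Dusp6 was not called. Dusp1 encodes a nuclear phosphatase that acts on the stress kinases p38 and JNK as well as on ERK, and it is a classical immediate-early gene. Dusp1 was at 59.5, 59.2 and 62.9 TMM-scaled CPM in Ythdf2-KO replicates 1 to 3, against 21.6, 19.9 and 22.9 CPM in WT. The lowest Ythdf2-KO library was thus well above the highest WT library. Its log2 fold change was 1.49 ± 0.044 (SE, n = 3 per genotype; edgeR adjusted p = 8.05e-30), a 2.82-fold rise and larger in size than that of 93.7% of the genes tested.

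Dusp5 encodes a nuclear phosphatase specific for ERK. Dusp5 was at 23.4, 23.1 and 23.9 CPM in Ythdf2-KO, against 12.1, 11.6 and 10.9 CPM in WT. The groups did not overlap, and the Ythdf2-KO libraries lay within a coefficient of variation of 1.82%. The log2 fold change was 1.03 ± 0.061 (edgeR adjusted p = 3.40e-19), or 2.04-fold. A gene on the opposite strand, AC137853.2, overlaps an exon of Dusp5 in the GENCODE M21 annotation. The count table has no entry under that symbol. Since the strand setting of the counting is not given in the sources used here, reads of such a partner cannot be told apart from those of Dusp5.

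Dusp4 encodes another nuclear phosphatase with activity toward ERK and JNK, and it moved the other way. Dusp4 was at 39.4, 43.1 and 40.1 CPM in Ythdf2-KO, against 76.7, 76.7 and 71.9 CPM in WT. Each Ythdf2-KO library was below each WT library. The log2 fold change was -0.88 ± 0.037 (edgeR adjusted p = 1.62e-24), leaving 54.4% of the WT level.

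Dusp6 encodes the cytoplasmic, ERK-selective phosphatase whose transcript is widely used as a measure of ERK output. Dusp6 was at 38.6, 39.4 and 41.4 CPM in Ythdf2-KO, against 36.1, 35.7 and 40.0 CPM in WT. The highest WT library, replicate 3, lay above 2 of the Ythdf2-KO libraries. The log2 fold change was 0.095 ± 0.043, with an approximate 95% interval of 0.010 to 0.18, and the call was missed (edgeR adjusted p = 0.0655). Dusp6 was called higher under 7 of 16 alternatives, among them RLE (edgeR adjusted p = 0.0400) and upper-quartile scaling (0.00465), no filter on low counts (0.0218), and leaving out Ythdf2-KO replicate 1 (0.0483) or WT replicate 3 (0.00505), over a range of 0.00465 to 0.293. Without WT replicate 3 its log2 fold change was 0.15.

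Promoter sequences are shown for Dusp1 and Dusp5, the phosphatase genes that rose, and for Dusp6, which was not called, because 2 of these 3 windows hold a motif known from early gene control. Each window runs from 250 bases before to 50 after the annotated start, 5′ to 3′ on the gene's strand, from RefSeq on GRCm38.p6. This is not the build of the counts, GRCm39. Capitals mark a cyclic-AMP response element, TGACGTCA, or a CArG box, the site of serum response factor. The windows are chr17:26508423-26508722 (minus strand) for Dusp1, chr19:53528895-53529194 (plus strand) for Dusp5 and chr10:99262981-99263280 (plus strand) for Dusp6.
Dusp1: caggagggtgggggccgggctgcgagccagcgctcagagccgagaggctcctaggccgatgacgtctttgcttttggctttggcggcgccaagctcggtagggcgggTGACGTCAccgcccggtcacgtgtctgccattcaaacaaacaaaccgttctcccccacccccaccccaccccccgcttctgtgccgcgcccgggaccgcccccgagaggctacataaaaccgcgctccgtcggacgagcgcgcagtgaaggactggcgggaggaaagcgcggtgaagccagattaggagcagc
Dusp5: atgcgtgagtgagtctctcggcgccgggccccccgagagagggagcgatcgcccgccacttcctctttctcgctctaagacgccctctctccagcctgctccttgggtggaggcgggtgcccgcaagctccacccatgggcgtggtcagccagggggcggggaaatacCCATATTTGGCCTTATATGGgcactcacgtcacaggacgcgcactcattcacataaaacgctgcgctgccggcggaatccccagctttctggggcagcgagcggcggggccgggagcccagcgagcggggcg
Dusp6: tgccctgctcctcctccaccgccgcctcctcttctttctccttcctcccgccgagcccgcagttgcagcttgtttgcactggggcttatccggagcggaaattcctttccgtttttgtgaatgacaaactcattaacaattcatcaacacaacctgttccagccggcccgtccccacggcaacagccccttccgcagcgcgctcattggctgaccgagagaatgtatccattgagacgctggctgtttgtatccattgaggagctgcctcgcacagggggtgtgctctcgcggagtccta

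Of the 10 genes, 7 matched a RefSeq window by symbol, with 8 windows in all. Dusp4, Spry4 and Etv4, all called lower, had no window here. Both strands were searched for TGACGTCA, for TGANTCA (the AP-1 site), for CCGGAAG (an ETS site) and for the CArG box by its consensus. The Dusp1 window held 1 TGACGTCA, which begins 143 bases before the start and which 1.79% of 32851 promoter windows hold. The Dusp5 window held 2 adjacent CArG boxes, CCATATTTGG and CCTTATATGG, beginning 82 and 72 bases before the start, and 1.63% of the windows hold at least 1. TGANTCA and CCGGAAG, present in 7.81% and 8.86% of all windows, were in none of the 8 windows of these 7 genes. None of the motifs was found in the windows of Dusp6, Spry1, Spry2, Spred1 and Etv5, although Spry1 was also called higher. A match describes these letters, and binding was not measured. Whether a match bears on the calls was not tested.

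The Sprouty genes and Spred1 differed in direction. Spry2 encodes a general inhibitor of receptor tyrosine kinase signaling. Spry2 was at 25.0, 26.7 and 27.5 CPM in Ythdf2-KO, against 27.5, 25.8 and 26.5 CPM in WT. The libraries overlapped fully, and the log2 fold change was -0.011 ± 0.049 with an approximate 95% interval of -0.11 to 0.085 (edgeR adjusted p = 0.875). A difference larger than that interval was therefore not seen, although a p that misses the threshold does not show that the levels were equal.

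Spry4 encodes a Sprouty protein that inhibits RAS-ERK activation by growth factors. Spry4 was at 17.7, 18.5 and 17.6 CPM in Ythdf2-KO, against 20.3, 22.1 and 21.4 CPM in WT. The groups did not overlap. The fall was small, with a log2 fold change of -0.25 ± 0.056 (edgeR adjusted p = 2.33e-04), or 84.2% of the WT level.

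Spred1 encodes a protein that recruits neurofibromin, an inactivator of RAS, to the plasma membrane. Spred1 was at 110.7, 118 and 116 CPM in Ythdf2-KO, against 156, 160.1 and 164 CPM in WT. The groups were widely separated relative to their spread. The log2 fold change was -0.48 ± 0.027 (edgeR adjusted p = 3.57e-20), leaving 71.6% of the WT level.

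Spry1, a further Sprouty gene, was close to the limit of detection. Its raw counts were 43, 22 and 44 in Ythdf2-KO and 10, 16 and 20 in WT. The lowest Ythdf2-KO library, replicate 2 with 0.356 CPM, lay only a little above the highest WT library, replicate 3 with 0.292 CPM. The log2 fold change was 1.16 ± 0.38 (edgeR adjusted p = 0.00996). The call was lost without Ythdf2-KO replicate 1 (edgeR adjusted p = 0.0579) or replicate 3 (edgeR adjusted p = 0.0604), over a range of 0.00532 to 0.0604. Gm42922, annotated on the opposite strand across a Spry1 exon, had 0 to 2 counts in any library.

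**Figure D2:**
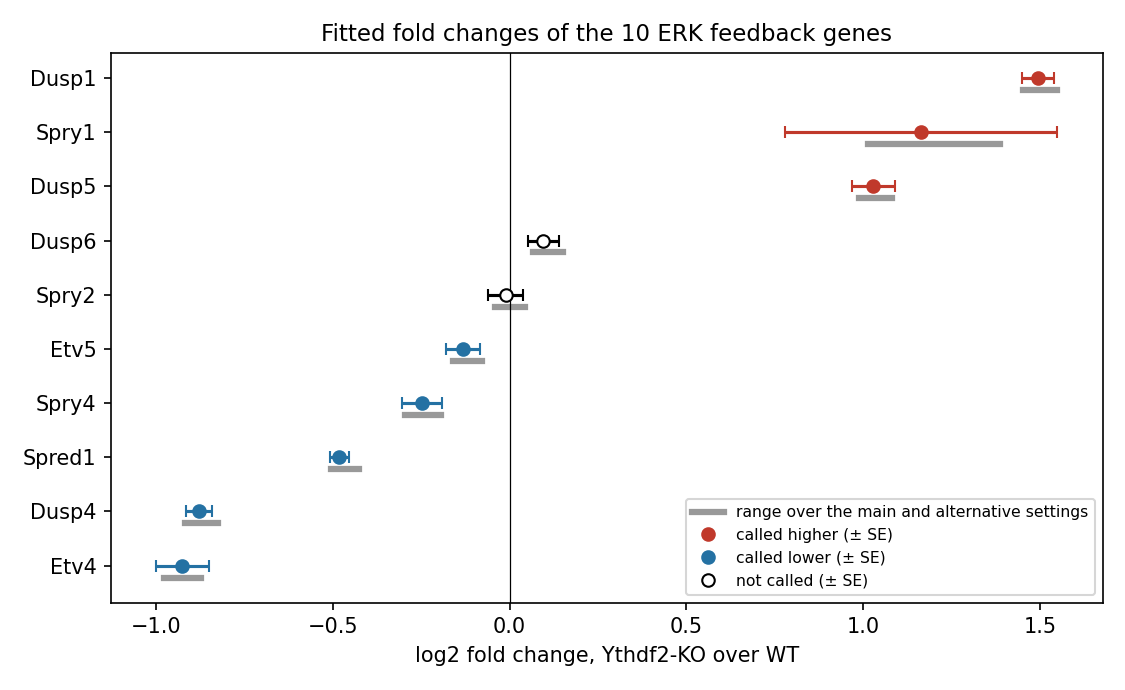
Fitted log2 fold change of Ythdf2-KO over WT (horizontal axis) with its SE for each of the 10 feedback genes, colored by call, and the range over the main and alternative settings as a grey bar under it. Dusp1, Spry1 and Dusp5 lay at 1.49, 1.16 and 1.03 and Dusp4 and Etv4 at -0.88 and -0.93; among the genes shown, the grey bar crosses 0 for Spry2.

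Both ETS factor genes fell, Etv4 by far more than Etv5. ETV4 and ETV5 belong to the PEA3 group, transcription factors that ERK signaling both induces and activates. Etv4 was at 7.77, 7.38 and 8.43 CPM in Ythdf2-KO, against 15.0, 15.4 and 14.4 CPM in WT. The groups did not overlap, and the log2 fold change was -0.93 ± 0.074 (edgeR adjusted p = 1.13e-14), leaving 52.6% of the WT level. Etv5 was at 23.1, 24.9 and 24.8 CPM in Ythdf2-KO, against 27.0, 26.6 and 26.1 CPM in WT. Its groups did not overlap either, but the gap was narrow. The log2 fold change was -0.13 ± 0.049 (edgeR adjusted p = 0.0229). The Etv5 call was lost under 8 of 16 alternatives, among them upper-quartile scaling (edgeR adjusted p = 0.192), the Wald test of DESeq2 (adjusted p = 0.0529), and leaving out Ythdf2-KO replicate 1 (edgeR adjusted p = 0.160), WT replicate 1 (0.0823) or WT replicate 2 (0.0698), over a range of 0.00483 to 0.192. Etv1, the remaining PEA3-group gene and no member of the 10, stood at 56.3 ± 0.659 CPM in Ythdf2-KO and 108 ± 3.02 CPM in WT (SD, n = 3), a log2 fold change of -0.93 ± 0.030 (edgeR adjusted p = 6.86e-29).

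Divided by transcript length, the levels can be set against each other. Lengths were those of 1 GENCODE M21 transcript per gene, from 1990 nucleotides for Dusp1 to 6016 for Spred1, so an unlike isoform in these cells would shift them. In Ythdf2-KO, Dusp1 was the highest of the 10 with 30.4 ± 1.01 CPM per kb, followed by Spred1 with 19.1 ± 0.599, Dusp4 with 14.9 ± 0.724, Dusp6 with 14.2 ± 0.525 and Spry2 with 12.6 ± 0.599 (SD, n = 3). In WT, Dusp4 was the highest with 27.4 ± 1.01 CPM per kb, followed by Spred1 with 26.6 ± 0.663, Dusp6 with 13.3 ± 0.844, Spry2 with 12.8 ± 0.409 and Dusp1 with 10.8 ± 0.767. Spry1 was the lowest in both, with 0.195 ± 0.0575 CPM per kb in Ythdf2-KO and 0.0861 ± 0.0202 in WT. Neighbours in this order whose libraries overlapped were Dusp4 and Dusp6 in Ythdf2-KO, and Dusp4 and Spred1, Dusp6 and Spry2, Etv5 and Etv4, and Dusp5 and Spry4 in WT; the other neighbours were separate.

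The make-up of the phosphatase transcripts differed between the genotypes. Dusp1 made up 44.0 ± 0.778% of the summed length-scaled level of the 4 phosphatase genes in Ythdf2-KO and 19.2 ± 1.19% in WT, and Dusp4 made up 21.6 ± 1.11% in Ythdf2-KO and 48.8 ± 2.06% in WT (SD, n = 3). The ratio of Dusp1 to Dusp4 on this scale was 2.08, 1.89 and 2.16 in Ythdf2-KO and 0.388, 0.357 and 0.439 in WT. The 4 phosphatase genes together summed to 67.6, 68.9 and 70.7 CPM per kb in Ythdf2-KO and to 56.6, 55.5 and 56.5 in WT. The 3 Sprouty genes together summed to 15.9, 16.8 and 17.1 CPM per kb in Ythdf2-KO and to 17.5, 17.1 and 17.3 in WT, and these sums overlapped. With Spred1 added, the sums were 34.3, 36.3 and 36.4 CPM per kb in Ythdf2-KO and 43.5, 43.7 and 44.6 in WT, a difference carried almost wholly by Spred1. Etv4 and Etv5 together summed to 9.13, 9.42 and 9.84 CPM per kb in Ythdf2-KO and to 13.2, 13.3 and 12.7 in WT. The sum over all 10 was 114 ± 2.97 CPM per kb in Ythdf2-KO and 113 ± 0.664 in WT, and the libraries overlapped.

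**Figure D3:**
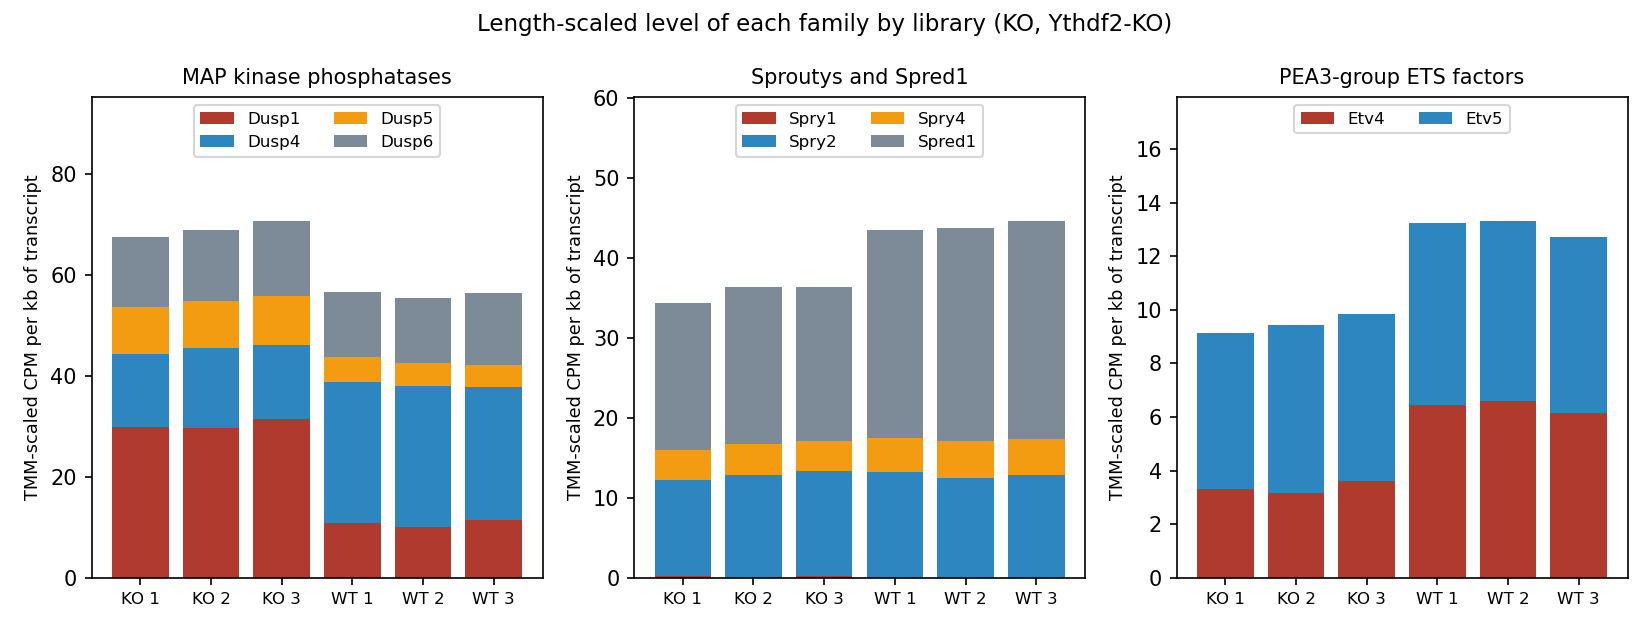
Length-scaled level (TMM-scaled CPM per kb of transcript, vertical axes from 0) stacked by gene for the phosphatases, the Sproutys with Spred1, and the ETS factors, in each Ythdf2-KO library (KO 1 to 3, left) and each WT library (right). The Dusp1 share of the phosphatase bars is 43.2 to 44.7% in Ythdf2-KO and 18.0 to 20.4% in WT.

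The transcripts were also described by sequence, since early-response mRNAs are known for rapid decay through AU-rich elements and YTHDF2 for binding m6A, which is often placed at GGACT. Only the sense strand was read, and m6A was not measured. All 10 transcripts held GGACT in the 3′ UTR, against 60.9% of 12649 tested protein-coding genes with a 3′ UTR of at least 50 nucleotides, and 9 held ATTTA there (all but Etv4), against 67.5%. A longer 3′ UTR is more likely to hold such a match, and these shares were not adjusted for length. The 3′ UTRs of the 10 ran from 624 nucleotides (Etv4) to 4330 (Spred1), against a median of 1023 over those genes. Density varied widely among the 10. Spry2 had 3.35 GGACT per kb of transcript, a higher density than that of 98.8% of those genes, and Dusp6 had 2.86. Spry4 and Etv4 had 0.421 and 0.428, under the median of 1.06 over those genes. Dusp1 and Dusp4, which moved in opposite directions, had 2.01 and 2.19 GGACT per kb. Dusp1 stood out for ATTTA, with 4 matches in a 3′ UTR of 690 nucleotides, or 5.80 per kb, a higher density than that of 95.4% of those genes.

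Sites from the 3′ UTRs of Dusp1 and Dusp4 are shown because these phosphatase mRNAs moved furthest apart within their family. Each is 29 bases of the GENCODE M21 transcript on GRCm38, 5′ to 3′, with the motif in capitals. The GGACT sites begin 272 bases after the stop codon in Dusp1, chr17:26505992-26506020 (minus strand), and 72 bases after it in Dusp4, chr8:34818843-34818871 (plus strand). The ATTTA site of Dusp1 begins 105 bases after the stop codon, chr17:26506159-26506187, and a second match overlaps its last base, 4 bases on. Dusp4 also held 2 ATTTA matches, not shown, at 1.80 per kb of 3′ UTR, above the median of 1.27 over the tested protein-coding genes.
Dusp1 GGACT site: gcagaagagaaaGGACTctgtttgaggca
Dusp4 GGACT site: aacagcaaatagGGACTgaccagtggggg
Dusp1 ATTTA site: gagctggtccttATTTAtttaacaccccc

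The other genes of the pathway were described from lists by role, chosen with earlier results of these data known. The shares given for these lists are therefore descriptive only. The first list held other genes assigned as MAP kinase phosphatases or negative regulators, and their effect on the pathway was not measured. Of its 29 tested genes, 11 were higher (37.9%, against 24.1% of all genes tested) and 9 lower (31.0%, against 25.8%). The median log2 fold change was -0.00049. Lrig1, which encodes an inhibitor of ERBB receptors, fell to 219 ± 2.39 CPM in Ythdf2-KO, against 438 ± 7.22 CPM in WT (SD, n = 3; edgeR adjusted p = 1.56e-35). Errfi1, an inducible inhibitor of the EGF receptor, fell to 30.2 ± 0.658 CPM in Ythdf2-KO, against 55.5 ± 1.65 CPM in WT (edgeR adjusted p = 1.16e-23). Sulf2, which encodes a heparan sulfate sulfatase, rose to 172 ± 1.71 CPM in Ythdf2-KO, against 109 ± 1.504 CPM in WT (edgeR adjusted p = 2.52e-26).

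The listed paralogs of the 10 genes were split as well. Among the other DUSP genes on the list, Dusp2 and Dusp3 rose, by log2 fold changes of 0.57 ± 0.060 and 0.34 ± 0.039, with edgeR adjusted p of 4.03e-11 and 2.80e-10. Dusp2 encodes an inducible nuclear phosphatase, and stood at 21.6 ± 0.933 CPM in Ythdf2-KO and 14.6 ± 0.886 CPM in WT. Dusp8, Dusp9 and Dusp16 fell, by log2 fold changes of -0.55, -0.28 and -0.66. Dusp9 is the ERK-selective relative of Dusp6, and Dusp8 and Dusp16 encode phosphatases of JNK and p38. Dusp7, Dusp10 and Dusp14, at log2 fold changes of -0.020, -0.025 and 0.16, were not called. Spred2 fell with Spred1, to 91.9 ± 1.22 CPM in Ythdf2-KO, against 118 ± 5.72 CPM in WT (edgeR adjusted p = 5.56e-14). Spred3 had a log2 fold change of -0.25 (edgeR adjusted p = 0.00852), and its call was lost without Ythdf2-KO replicate 3 (edgeR adjusted p = 0.0648), without WT replicate 3 (0.0889) and with upper-quartile scaling (0.0521), over a range of 5.33e-04 to 0.0889.

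Upstream, 17 ligand genes of receptor tyrosine kinases were tested. Of these, 8 were lower (47.1%, against 25.8% of all genes tested) and 4 higher (23.5%, against 24.1%). The median log2 fold change was -0.53. Vegfc, a growth factor for lymphatic vessels, fell to 7.36 ± 0.575 CPM in Ythdf2-KO, against 39.9 ± 1.23 CPM in WT (log2 fold change -2.43 ± 0.058, edgeR adjusted p = 4.61e-34). Pdgfa, a ligand of PDGF receptors, fell to 57.9 ± 0.656 CPM in Ythdf2-KO, against 129 ± 3.09 CPM in WT (edgeR adjusted p = 2.26e-33). Ereg, an ERBB ligand that is itself induced by ERK, fell to 127 ± 4.96 CPM in Ythdf2-KO, against 264 ± 5.70 CPM in WT (edgeR adjusted p = 5.18e-33). Of 18 tested receptor genes, 10 were higher (55.6%, against 24.1% of all genes tested) and 7 lower (38.9%, against 25.8%). The median log2 fold change was 0.21. Over the alternative settings 8 to 11 receptor genes were called higher and 6 to 8 lower. Among the higher ones, Egfr and Flt4 had means under 1 CPM in both genotypes. Pdgfra, Pdgfrb and Igf1r rose, by log2 fold changes of 0.60 ± 0.022, 0.57 ± 0.022 and 0.66 ± 0.042, with edgeR adjusted p of 1.44e-26, 2.53e-26 and 4.07e-18.

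Genes of the kinase cascade and of kinases that ERK activates were called in both directions, at shares not far from those of all genes tested. The list held adaptor, RAS, RAF, MEK, ERK and scaffold genes, and also the Rps6ka and Mknk genes, which encode kinases downstream of ERK. Of its 39 genes, all tested, 11 were higher (28.2%, against 24.1% of all genes tested), 13 were lower (33.3%, against 25.8%) and 15 were not called. The median log2 fold change was -0.039. Map2k1, which encodes MEK1, was at 143 ± 4.68 CPM in Ythdf2-KO and 190 ± 1.04 CPM in WT (log2 fold change -0.41 ± 0.025, edgeR adjusted p = 1.09e-18). Rap1b, a RAS-related GTPase gene, fell by 0.39 ± 0.024 on the log2 scale (edgeR adjusted p = 8.32e-19), and Mknk2, which encodes a kinase that ERK activates, rose by 0.43 ± 0.029 (edgeR adjusted p = 3.11e-17).

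Genes that respond to ERK were split between the directions, as the feedback genes were. Of 34 tested ERK-responsive genes and ETS factors, 16 were higher (47.1%, against 24.1% of all genes tested) and 12 lower (35.3%, against 25.8%). The median log2 fold change was 0.038. Fos, an immediate-early AP-1 gene, rose to 97.9 ± 2.44 CPM in Ythdf2-KO, against 26.1 ± 1.58 CPM in WT (SD, n = 3; log2 fold change 1.91 ± 0.038, edgeR adjusted p = 4.31e-37). Ier3, an early-response gene linked to survival, fell to 137 ± 3.89 CPM in Ythdf2-KO, against 374 ± 4.198 CPM in WT (log2 fold change -1.45 ± 0.024, edgeR adjusted p = 1.07e-40). Phlda1, a pleckstrin-homology family gene induced by growth factors, fell to 61.4 ± 0.749 CPM in Ythdf2-KO, against 158 ± 7.90 CPM in WT (edgeR adjusted p = 8.24e-33).

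**Figure D4:**
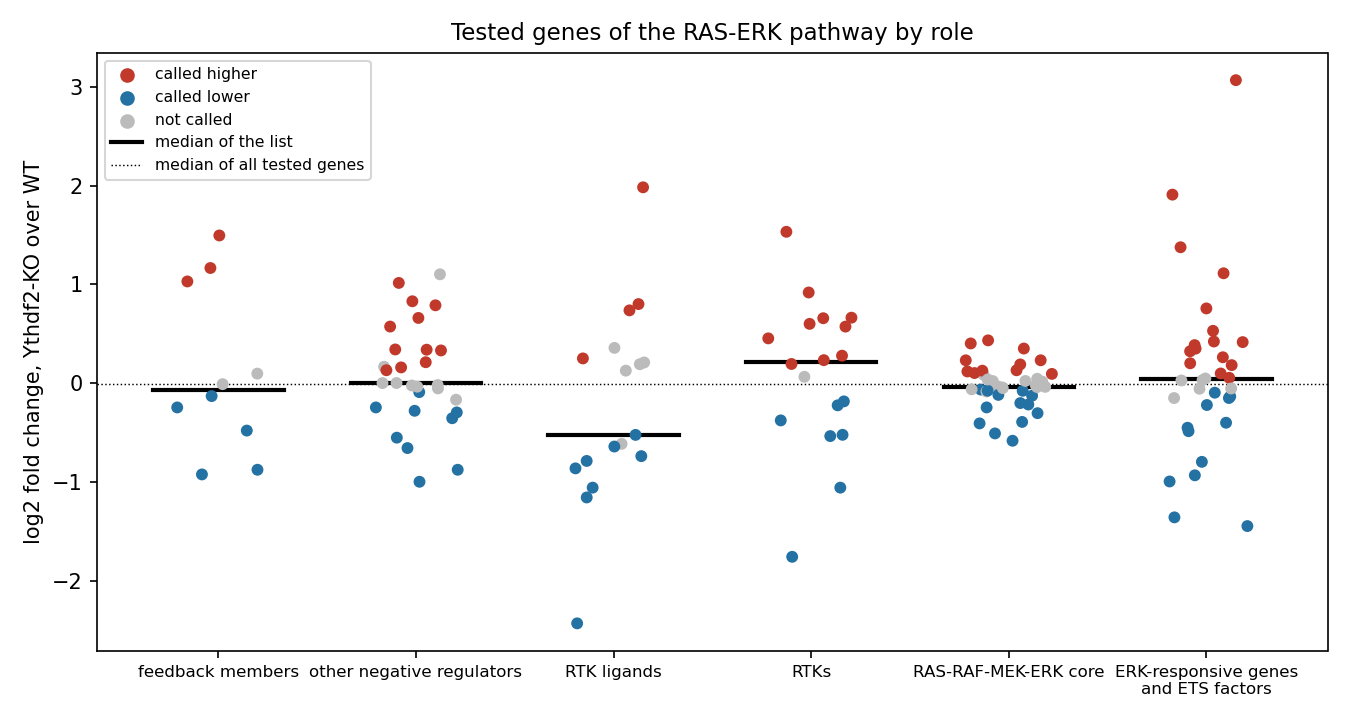
Log2 fold change of Ythdf2-KO over WT (vertical axis) for each tested gene of the 10 feedback genes and of 5 further lists of the RAS-ERK pathway (columns, points spread sideways at random), colored by call, with each list's median and the median of all genes tested. The ligand list has the lowest median, -0.53. The core list, which includes kinases that ERK activates, spans -0.58 (Rras) to 0.43 (Mknk2).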

How the data were processed

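Polyadenylated RNA of 3 Ythdf2-KO and 3 WT libraries of B16-OVA cells was sequenced as paired ends on an Illumina NovaSeq instrument after KAPA RNA HyperPrep library preparation, per the labels' protocols. Per the submitters' processing notes, the authors used fastp 0.23.2, HISAT2 2.2.1 and featureCounts 2.0.6 with GRCm39; how strand and multi-mapping reads were handled is not stated there. The authors deposited raw whole counts for each gene symbol.

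The analysis used edgeR 4.0.16 in R 4.3.3: filterByExpr, TMM scaling, a robust quasi-likelihood fit over all 6 libraries, and Benjamini-Hochberg adjustment over the tested genes. Calls were made at an adjusted p under 0.05. Fold changes are Ythdf2-KO over WT; their SE was derived from the fitted value and the F statistic, and approximate 95% intervals are 1.96 SE to each side. Levels are TMM-scaled CPM, given as mean ± SD. In a simulated table of 17718 genes, 50 genes were altered for each fold size. Of the 50 altered 1.2-fold, 74% were called. The share was 92% for the 50 altered 1.5-fold and 98% for the 50 altered 2-fold. Unaltered genes gave 17 calls. Far fewer genes were altered there than the 49.9% called in the data. The altered genes were drawn only from genes above a minimum mean count, which Spry1 did not reach. Recovery was not split by expression level either, so these shares hold for well-covered genes and do not describe low genes such as Spry1. Replicates of a genotype differed by more than sampling noise, with a chi-square per degree of freedom of 3.98 to 13.0 within and 102 to 120 between genotypes.

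The 10 genes were given as a list of symbols, and the pathway lists were chosen with earlier results of these data known. Besides the 10 and Ythdf2, the rule for named genes took from each pathway list the 3 genes with the smallest adjusted p and a mean of at least 1 CPM in the higher genotype; paralogs of the 10 were added from the lists. Alternatives were other scalings (RLE, upper-quartile, TMM leaving out mitochondrial genes and the 20 most abundant), no filter or a mean of 5 CPM, leaving out each library, the replicate block, DESeq2 1.42.0 (Wald test), voom in limma 3.58.1, an adjusted p under 0.01, and offsets for transcript length and GC content, which 94.6% of tested genes had. Transcripts came from GENCODE M21 and promoters from RefSeq, both on GRCm38 and joined by symbol. Plots were made with matplotlib 3.10.9 under Python 3.11.15.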

Additional observations from a re-analysis of the deposited data

How the results depend on the processing

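Dusp1, Dusp4, Dusp5, Spry4, Spred1 and Etv4 kept their direction and their call under all 16 alternatives, with log2 fold changes of 1.45 to 1.55, -0.92 to -0.82, 0.99 to 1.08, -0.30 to -0.19, -0.51 to -0.43 and -0.98 to -0.87. Spry1 was not tested with the 5 CPM filter. Calls for Dusp6, Spry1, Etv5 and Spred3 depended on the setting, as given above. Among genes that were not called, the sign of Spry2 turned with upper-quartile scaling (0.042), with no filter (0.0089), with the 5 CPM filter (0.012) and with offsets for length and GC content (0.023), and its values without 1 library ranged from -0.042 to 0.026. Dusp7 turned with upper-quartile scaling (0.034) and the 5 CPM filter (0.0037), ranged from -0.049 to 0.0014 without 1 library, and was called lower with the offsets (-0.076). Dusp10 turned with upper-quartile scaling (0.029), and Dusp14 was called higher with upper-quartile scaling and without WT replicate 2. The 5 CPM filter left 2 ligand genes called higher, because low ligands were no longer tested. The cause of the other changes was not tested.

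With the replicate block, 4132 genes were called higher and 4409 lower, and 3 and 5 of the 10 feedback genes, as without it. Deviations of same-numbered libraries correlated at 0.046, -0.093 and -0.12 for replicates 1, 2 and 3. The highest value was 0.14, for Ythdf2-KO replicate 3 with WT replicate 2. Each deviation was taken from the mean of its own genotype, which ties the values to each other. They therefore cannot show whether the numbers pair the libraries. Depth limits Spry1, whose libraries held 10 to 44 counts.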
